A study of Mus musculus with 10 samples.

Results

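NRF2, the product of Nfe2l2, is a transcription factor that the adaptor KEAP1 marks for degradation until oxidants or electrophiles modify KEAP1. Stabilized NRF2 pairs with small MAF proteins at antioxidant response elements and raises genes that make glutathione, recycle thioredoxin and detoxify quinones and haem. Metallothioneins are small cysteine-rich proteins that bind zinc and copper and are induced by metals through the zinc sensor MTF1, by glucocorticoids and by oxidative stress. In T cells, glutathione supply is known to be needed for growth after activation.

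Here 10 mouse genes of this antioxidant response were followed out of 57825 genes listed in the table: Nfe2l2 itself, 7 enzyme genes that NRF2 is known to control (Nqo1, Hmox1, Gclm, Gclc, Txnrd1, Srxn1 and Gsr) and the metallothionein genes Mt1 and Mt2. The genes were chosen by name, with earlier results of these data known, and each name occurred in 1 row. Shares of all genes tested are therefore set beside the counts below as description and not as a test. The RNA sequenced was that of CD8+ T cells after co-culture with 4T1, a mouse mammary carcinoma cell line, in 5 samples without (CD8+4T1) and 5 samples with sodium acetate (CD8+4T1+NaAc), all labelled day 3. According to the methods, T cells from spleens of female Balb/c mice were activated on anti-CD3 with anti-CD28 and IL-2 for 12 h, kept with or without 5 mM NaAc for 24 h and then co-cultured for 48 h. The RNA is said to come from purified CD8+ T cells, with no statement of whether cells were purified again after the co-culture. No sample without 4T1 cells was analysed here, so each value compares co-cultures only. The labels do not say whether the 5 samples of a group came from separate mice or cultures, and the p-values measure only the spread between these samples.

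The authors deposited FPKM, the fragments of a gene divided by its length and by the sequencing depth of its sample. The samples were scaled to between 16306447 and 18853726 fragments. Listed genes held 95.5% to 97.9% of them in CD8+4T1 and 89.8% to 92.1% in CD8+4T1+NaAc. Replicate 1 stood apart in both groups. In CD8+4T1 it had 22291 genes above 0 and the other 4 had 23786 to 24054, and in CD8+4T1+NaAc it had 20233 and the other 4 had 24681 to 25088. T cell markers were present in every sample, with a summed level of 12 genes between 1014 and 1121 FPKM in CD8+4T1 and between 899 and 1039 FPKM in CD8+4T1+NaAc. The sum of 16 markers of 4T1 and epithelial cells was 31.1 to 40.7 FPKM in CD8+4T1 and 84.9 to 197.4 FPKM in CD8+4T1+NaAc, and no gene of this list was at 0 in all samples. Spint2, which was not called, made up 20.7 FPKM of the mean sum in CD8+4T1 and 19.2 FPKM of that in CD8+4T1+NaAc. In bulk RNA, fewer cells of a type and less RNA per cell cannot be told apart.

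The question was whether the antioxidant genes differed between co-culture samples with and without acetate. The summed 4T1 markers given above were also higher with NaAc, and the part of 4T1 RNA in the values below was not tested. Nqo1, Gclm, Srxn1 and Nfe2l2 rose in CD8+4T1+NaAc, by 5.05-fold, 2.68-fold, 1.37-fold and 1.25-fold on the log2(FPKM + 0.1) scale. Mt1 fell to 0.602 of its level in CD8+4T1. Hmox1, Gclc, Txnrd1, Gsr and Mt2 did not pass the test. Thus 5 of the 10 genes were called at a limma adjusted p under 0.05, where 36.5% of all 15710 genes tested were called. Of the 10 genes 4 were called higher, against 17.6% of all genes tested, and 1 was called lower, against 19.0%. The groups did not overlap for 3 genes (Nqo1, Gclm and Mt1), as for 26.4% of all genes tested. Nqo1 and Gclm were called with an absolute log2 fold change over 1, which makes 2 of 10, as were 6.47% of all genes tested. The median log2 fold change was 0.10 over the 10 genes and -0.02 over all genes tested.

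**Figure D1:**
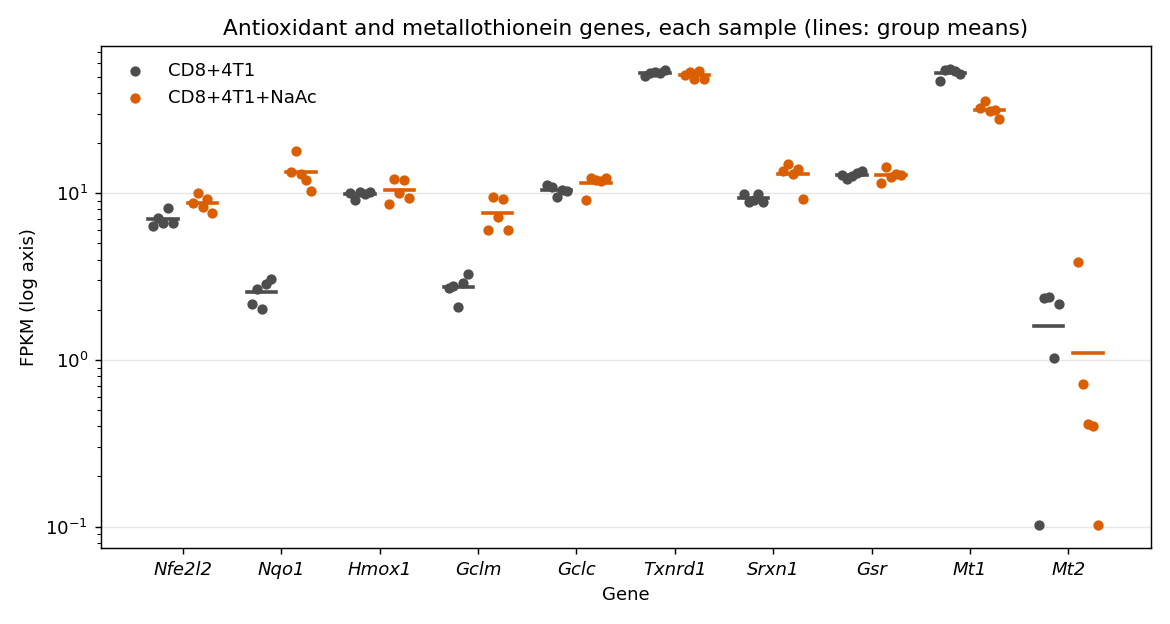
FPKM (log axis) of the 10 antioxidant and metallothionein genes in each of the 5 CD8+4T1 (grey) and 5 CD8+4T1+NaAc samples (orange), with group means as lines. Nqo1 and Gclm lay higher and Mt1 lower in every CD8+4T1+NaAc sample, while the points of Txnrd1, Gsr, Gclc and Hmox1 overlapped.

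The levels of the 10 genes, compared per length in FPKM, spanned a wide range. The order rests on the listed gene lengths, of which that of Mt1 includes its introns. In CD8+4T1, Txnrd1 (52.8 ± 1.72 FPKM, SD, n = 5) and Mt1 (52.6 ± 3.51) were the highest under these lengths and did not differ beyond their spread. Gsr, Gclc, Hmox1 and Srxn1 followed between 12.9 and 9.35 FPKM, with Gsr apart from Gclc and with Srxn1 apart from Nfe2l2, while the ranges of Gclc, Hmox1 and Srxn1 overlapped from each to the next. Nfe2l2 came next at 6.98 FPKM, then Gclm at 2.75 and Nqo1 at 2.55 FPKM with overlapping ranges. Mt2 had the lowest mean, 1.61 ± 1.01 FPKM, but its range overlapped that of Nqo1. Under the same lengths, Txnrd1 stood above Mt1 in CD8+4T1+NaAc, and Nqo1 was the third of the 10 genes with 13.3 ± 2.77 FPKM (SD, n = 5). From Nqo1 through Srxn1, Gsr, Gclc, Hmox1 and Nfe2l2 to Gclm, each range overlapped the next, so that the order of neighbours was not resolved. The ranges of Nqo1 (from 10.3 FPKM) and Gsr (from 11.5 FPKM) lay above those of Nfe2l2 (up to 10.03 FPKM) and Gclm (up to 9.50 FPKM). Mt2 lay below all of these genes.

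Nfe2l2 (ENSMUSG00000015839), the gene of the transcription factor itself, is listed on chromosome 2 from 75505857 to 75534985. Its levels in CD8+4T1 replicates 1 to 5 were 6.37, 7.13, 6.61, 8.14 and 6.66 FPKM. With NaAc they were 8.75, 10.03, 8.24, 9.25 and 7.61 FPKM. All CD8+4T1+NaAc samples but replicate 5 were above the highest CD8+4T1 sample, so the groups overlapped by this sample alone. The rise of Nfe2l2 was 0.33 on the log2 scale, with a standard error of 0.09 (limma adjusted p = 0.0145). In an exact two-sided permutation test of mean FPKM over the 252 splits into 5 and 5, p was 0.0159.

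Nqo1 (ENSMUSG00000003849; chromosome 8, 108114857 to 108129838) encodes NAD(P)H quinone dehydrogenase, which reduces quinones in a single step and is a standard readout of NRF2 activity. It was at 2.16, 2.66, 2.01, 2.85 and 3.04 FPKM in CD8+4T1 replicates 1 to 5, from 51 to 78 fragments. The samples with NaAc were at 13.4, 17.8, 13.1, 12.03 and 10.3 FPKM, from 266 to 521 fragments. The lowest sample with NaAc was thus above the highest one without, and replicate 2 was the highest of all. This was the largest rise among the 10 genes, at 2.34 on the log2 scale with a standard error of 0.15 (limma adjusted p = 9.4e-06). Its exact permutation p of 0.00794 is the smallest that 5 against 5 samples allow.

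Gclm and Gclc encode the modifier and the catalytic subunit of glutamate-cysteine ligase, the rate-limiting enzyme of glutathione synthesis. Gclm (ENSMUSG00000028124; chromosome 3, 122039206 to 122064381) was at 2.70, 2.78, 2.08, 2.90 and 3.27 FPKM in CD8+4T1. With NaAc it was at 5.98, 9.50, 7.20, 9.28 and 6.03 FPKM. Every sample with NaAc exceeded every sample without, and replicates 2 and 4 were the highest. For Gclm the log2 fold change was 1.42 (standard error 0.16, limma adjusted p = 9.38e-05; exact permutation p = 0.00794).

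Gclc (ENSMUSG00000032350; chromosome 9, 77661817 to 77701767) was at 11.3, 10.9, 9.49, 10.5 and 10.3 FPKM in CD8+4T1. Its levels with NaAc were 9.05, 12.4, 11.97, 11.8 and 12.3 FPKM. Replicate 1 with NaAc was the lowest of all 10 samples and the other 4 were the highest. The log2 fold change was 0.12 (95% confidence interval -0.07 to 0.32, limma adjusted p = 0.307). Without replicate 1 of CD8+4T1+NaAc it was 0.21 and passed the test (limma adjusted p = 0.0105), as it did after setting all samples to one total FPKM (0.30) or to one level of T cell markers (0.26). As a description, the ratio of Gclc to Gclm FPKM was 3.89 ± 0.540 (SD, n = 5) in CD8+4T1 and 1.56 ± 0.316 (SD, n = 5) in CD8+4T1+NaAc, with no overlap. This ratio does not depend on how samples are scaled, and it was chosen after the levels had been seen, so it adds no test to those of the single genes.

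Srxn1 (ENSMUSG00000032802; chromosome 2, 151947436 to 151953296) encodes sulfiredoxin, which repairs over-oxidized peroxiredoxins. It was at 9.89, 8.90, 9.16, 9.90 and 8.90 FPKM in CD8+4T1. In CD8+4T1+NaAc it was at 13.6, 14.9, 13.1, 14.0 and 9.22 FPKM. Of the samples with NaAc, 4 were above all samples without, whereas replicate 5 lay within their range. The log2 fold change was 0.45 (standard error 0.11, limma adjusted p = 0.0105; exact permutation p = 0.0238).

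Hmox1 (ENSMUSG00000005413; chromosome 8, 75820249 to 75827217) encodes heme oxygenase 1, which breaks down haem and is induced by NRF2 once the repressor BACH1 is released. Its levels were 10.1, 9.07, 10.2, 9.84 and 10.2 FPKM in CD8+4T1. In CD8+4T1+NaAc they were 8.62, 12.1, 10.04, 11.99 and 9.35 FPKM. The samples with NaAc lay on both sides of those without. Hmox1 had a log2 fold change of 0.07 (95% confidence interval -0.14 to 0.28, limma adjusted p = 0.624), and no alternative processing gave a call (adjusted p between 0.0617 and 0.953).

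Txnrd1 and Gsr encode thioredoxin reductase 1 and glutathione reductase, which use NADPH to regenerate thioredoxin and glutathione. Txnrd1 (ENSMUSG00000020250; chromosome 10, 82669785 to 82733546), the most deeply covered of the 10 genes with 5649 to 7140 fragments per sample, was between 50.2 and 54.9 FPKM in CD8+4T1 (median 52.8) and between 48.3 and 54.0 FPKM in CD8+4T1+NaAc (median 50.9). Gsr (ENSMUSG00000031584; chromosome 8, 34142551 to 34188191) was between 12.2 and 13.6 FPKM in CD8+4T1 (median 12.9) and between 11.5 and 14.3 FPKM in CD8+4T1+NaAc (median 12.9). The groups overlapped for both genes. The log2 fold changes were -0.05 for Txnrd1 (95% confidence interval -0.15 to 0.05, limma adjusted p = 0.445) and -0.01 for Gsr (-0.15 to 0.12, limma adjusted p = 0.905). Rescaling to the same total FPKM, which moved the median of all genes from -0.02 to 0.15, turned them to 0.13 and 0.17, and Gsr was then called (limma adjusted p = 0.0448).

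**Figure D2:**
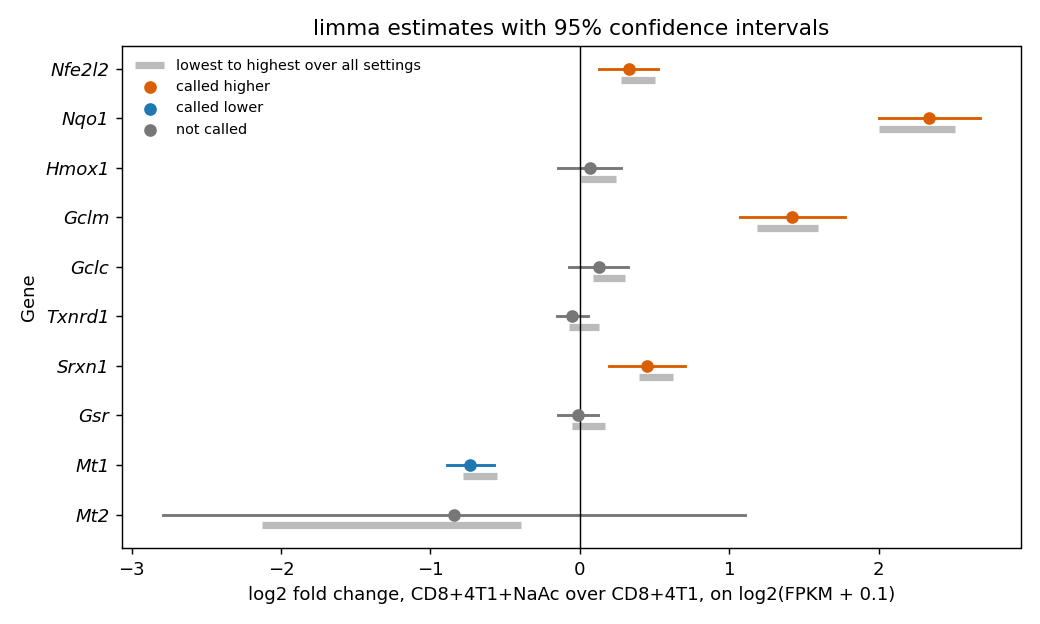
Log2 fold change of each gene, CD8+4T1+NaAc over CD8+4T1, from limma on log2(FPKM + 0.1) (points) with its 95% confidence interval (thin lines), and the range of the estimate over all settings tried (grey bars). The intervals of Nqo1, Gclm, Srxn1 and Nfe2l2 lay above 0 and that of Mt1 below 0, and the interval of Mt2 was the widest, from -2.79 to 1.11.

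The metallothionein genes Mt2 and Mt1 lie next to each other in the same orientation on chromosome 8, listed from 94899292 to 94900196 and from 94905710 to 94906955, with 5513 bases between them. Mt1 (ENSMUSG00000031765) was at 46.8, 54.6, 55.8, 53.9 and 52.1 FPKM in CD8+4T1 and at 32.5, 35.5, 31.3, 31.4 and 27.7 FPKM in CD8+4T1+NaAc. Every sample with NaAc was below every sample without. The log2 fold change was -0.73 (standard error 0.07, limma adjusted p = 4.32e-05; exact permutation p = 0.00794), and it stayed between -0.78 and -0.56 in all settings.

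Mt2 (ENSMUSG00000031762) rested on few fragments. In CD8+4T1 replicates 1 to 5 it had 1, 24, 23, 10 and 21 fragments, which is 0.102, 2.34, 2.40, 1.03 and 2.16 FPKM. In CD8+4T1+NaAc it had 39, 8, 4, 4 and 1 fragments, which is 3.88, 0.722, 0.412, 0.402 and 0.102 FPKM. Replicate 1 was the lowest sample of CD8+4T1 and the highest of CD8+4T1+NaAc, against the order of all other replicates. With all samples the log2 fold change was -0.84 (95% confidence interval -2.79 to 1.11, limma adjusted p = 0.493). Without replicate 1 of both groups, the level of Mt2 was 1.98 ± 0.642 without and 0.410 ± 0.253 FPKM with NaAc (SD, n = 4 each), and the log2 fold change of -2.13 passed the test (limma adjusted p = 0.00412). Leaving out replicate 1 of only one group gave no call. The log2 fold change was then -1.50 without that of CD8+4T1 (limma adjusted p = 0.145) and -1.47 without that of CD8+4T1+NaAc (limma adjusted p = 0.150). Without replicate 5 of CD8+4T1+NaAc it was -0.39 (limma adjusted p = 0.764). Mt1 and Mt2 have similar coding sequences, and how reads shared by related genes were counted is not given in the sources used here. The length listed for Mt1, 1246 bases, equals its whole span with introns, which lowers its FPKM per base of mature RNA but is the same in both groups.

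**Figure D3:**
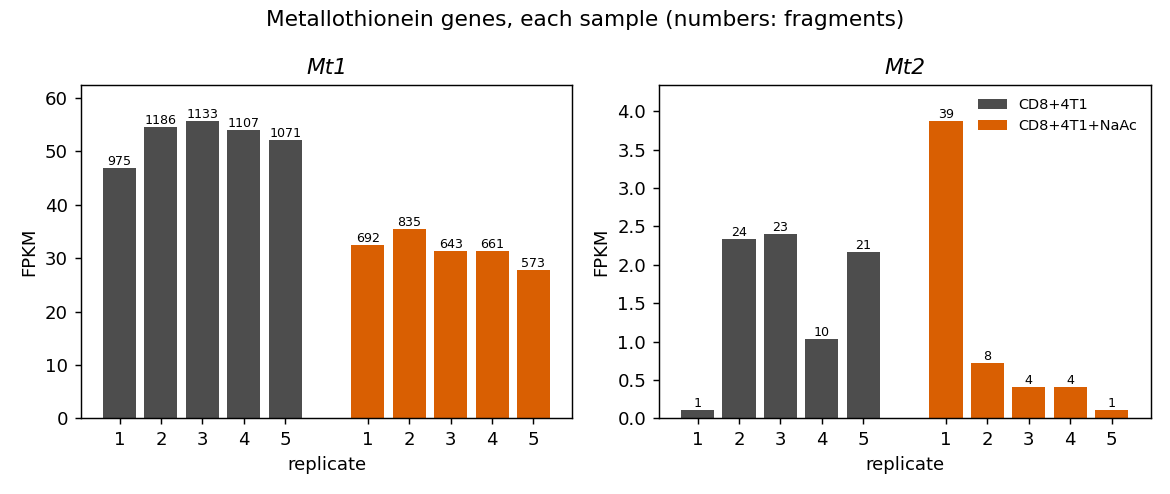
FPKM of Mt1 and Mt2 in each replicate of CD8+4T1 (grey) and CD8+4T1+NaAc (orange), with the number of fragments above each bar. Mt1 had 975 to 1186 fragments per sample without and 573 to 835 with NaAc, whereas Mt2 had 1 to 39 fragments and replicate 1 ran against the other replicates in both groups.

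The promoters of the 5 genes that passed the test, and of Mt2 as the neighbour of Mt1, are shown because NRF2 and MTF1 act through short elements there. RefSeq promoter entries (GRCm38.p6) were found for 7 of the 10 genes, not for Hmox1, Gclc and Gsr. The 250 bases before the start were searched on both strands for an antioxidant response element core (TGACNNNGC or TGAGNNNGC) and a metal response element core (TGCACNC or TGCGCNC). Each window reads 5′ to 3′ on the strand of its gene, with matches to either core in capitals. These positions are on GRCm38.p6, whereas the gene positions given above are as listed in the table, whose build is not named and is not GRCm38, so the 2 sets cannot be read together. The windows are chr2:75704664-75704913 (minus strand) for Nfe2l2, chr8:107403206-107403455 (minus strand) for Nqo1, chr3:122245307-122245556 (plus strand) for Gclm, chr2:152105274-152105523 (plus strand) for Srxn1, chr8:94178839-94179088 (plus strand) for Mt1 and chr8:94172368-94172617 (plus strand) for Mt2.
Nfe2l2: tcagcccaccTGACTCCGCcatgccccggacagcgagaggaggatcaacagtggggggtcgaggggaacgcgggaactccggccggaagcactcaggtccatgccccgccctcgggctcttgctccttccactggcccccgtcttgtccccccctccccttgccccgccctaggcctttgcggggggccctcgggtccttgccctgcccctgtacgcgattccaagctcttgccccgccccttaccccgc
Nqo1: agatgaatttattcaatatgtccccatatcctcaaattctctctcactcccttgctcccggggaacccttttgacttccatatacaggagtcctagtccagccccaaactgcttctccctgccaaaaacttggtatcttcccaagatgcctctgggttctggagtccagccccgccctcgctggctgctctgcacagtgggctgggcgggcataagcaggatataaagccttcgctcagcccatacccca
Gclm: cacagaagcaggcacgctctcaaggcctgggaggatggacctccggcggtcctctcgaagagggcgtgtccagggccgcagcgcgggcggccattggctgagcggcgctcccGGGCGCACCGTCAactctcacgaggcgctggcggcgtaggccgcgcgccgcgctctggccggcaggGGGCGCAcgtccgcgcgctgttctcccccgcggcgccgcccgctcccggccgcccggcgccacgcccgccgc
Srxn1: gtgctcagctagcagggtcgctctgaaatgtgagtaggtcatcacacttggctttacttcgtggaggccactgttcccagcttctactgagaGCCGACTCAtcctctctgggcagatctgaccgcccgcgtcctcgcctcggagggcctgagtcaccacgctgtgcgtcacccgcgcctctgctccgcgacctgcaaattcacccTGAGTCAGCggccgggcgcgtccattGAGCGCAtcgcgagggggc
Mt1: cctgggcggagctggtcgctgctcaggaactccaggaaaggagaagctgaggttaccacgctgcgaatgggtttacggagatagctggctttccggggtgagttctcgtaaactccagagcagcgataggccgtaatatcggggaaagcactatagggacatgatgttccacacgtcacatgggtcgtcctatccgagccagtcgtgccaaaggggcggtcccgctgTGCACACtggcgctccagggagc
Mt2: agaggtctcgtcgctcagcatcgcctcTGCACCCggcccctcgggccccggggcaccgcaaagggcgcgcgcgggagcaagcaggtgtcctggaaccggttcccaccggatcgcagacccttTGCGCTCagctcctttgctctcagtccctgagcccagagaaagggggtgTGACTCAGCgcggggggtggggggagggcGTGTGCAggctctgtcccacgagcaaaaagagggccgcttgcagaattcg

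Among these windows, the antioxidant core was present once for Nfe2l2, Gclm and Mt2 and in 2 places for Srxn1. It was absent from the 250 bases of Nqo1 and Mt1. Bases after the listed start or further upstream were not searched, so elements there would be missed for either core. Of all 32851 promoter windows of this length 23.0% held the antioxidant core. The metal response core was present once for Mt1 and Srxn1, in 2 places for Gclm and in 3 for Mt2, and in 21.4% of all windows. In Gclm the capitals furthest from the start join overlapping matches of both cores. The AP-1 element (TGACTCA or TGAGTCA), present in 4.46% of all windows, lay within the antioxidant core of Mt2 and within the one nearest to the start of Srxn1, which held 1 more outside it. Of the 3 starts listed for Txnrd1, the second held an antioxidant core (1 match). A match is a string of letters and no binding was measured. Of the called genes, Gclm, Srxn1 and Nfe2l2 had an antioxidant core. Nqo1, with the largest rise, and Mt1, which was called lower, had none in these 250 bases. Mt2 and Txnrd1, which were not called, also had a core, so matches and calls did not go together.

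A list of 55 other genes of the pathway, also chosen with earlier results of these data known, was examined in the same way. Of these 54 passed the filter on low values. Of the 54 genes 22 rose, 11 fell and 21 did not pass the test, with a median log2 fold change of 0.17. Over all genes tested the median was -0.02, and 17.6% were called higher and 19.0% lower. The 22 include Me1 and Mgst1, which passed the filter only through the samples with NaAc, where they were high. The split depended on the filter and the scaling. Among the 36 pathway genes with a mean of 5 FPKM or more 10 rose and 10 fell, where 33.7% of the calls over all genes were higher. Once all samples were set to one total FPKM, 33 pathway genes rose and 7 fell, and 77.9% of the calls over all genes were then higher. Of the 33 calls 25 were kept in every alternative fit that tested the gene.

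Among 9 genes that control NRF2, Bach1 rose and Keap1, Mafk and Maff fell, which is 4 of 9 called where 36.5% of all genes tested were. Maff, a small MAF partner, went from 9.65 ± 0.563 to 5.27 ± 1.48 FPKM (SD, n = 5; log2 fold change -0.91, standard error 0.18, limma adjusted p = 0.00281). Keap1, which retains NRF2 for degradation, went from 16.7 ± 0.247 to 15.2 ± 0.501 FPKM (log2 fold change -0.14, limma adjusted p = 0.0170), a small change with no overlap between the groups. The calls of Keap1 and Mafk were lost when samples were rescaled to the same total FPKM or to T cell markers, and the log2 fold change of Keap1 was 0.036 in the former. Bach1, a repressor that competes with NRF2, had a log2 fold change of 0.35 (limma adjusted p = 0.0193), and its call was lost without replicate 1 of both groups and without replicate 4 of CD8+4T1+NaAc. Cul3, Bach2, Mafg, Sqstm1 and Nfe2l1 did not pass the test. Once all samples were set to one total FPKM, Bach2 (0.19) and Sqstm1 (0.29) were called higher beside Bach1 (0.52). Of the 9 genes only Maff (-0.73) was then called lower.

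Among 17 other known NRF2 targets 11 rose and 2 fell, with a median log2 fold change of 0.57, where 17.6% of all genes tested were called higher and 19.0% lower. The largest rise was that of Gsta4, a glutathione transferase that clears lipid peroxidation products, from 1.09 ± 0.275 to 6.25 ± 1.36 FPKM (SD, n = 5; log2 fold change 2.43, or 1.79 with a pseudocount of 1, limma adjusted p = 2.31e-05). Me1, malic enzyme and a source of NADPH, went from 0.315 ± 0.0632 to 1.68 ± 0.606 FPKM (log2 fold change 2.06, limma adjusted p = 0.000118). It passed the filter on low values only through the samples with NaAc, and its log2 fold change was 1.003 with a pseudocount of 1. Osgin1, a stress-induced growth inhibitor, had a log2 fold change of 2.09, which was 1.19 with a pseudocount of 1. Slc7a11, the cystine carrier that feeds glutathione synthesis, went from 1.22 ± 0.217 to 3.25 ± 0.835 FPKM (log2 fold change 1.32, limma adjusted p = 0.000269). Fth1, the ferritin heavy chain, went from 89.5 ± 7.92 to 222.1 ± 55.5 FPKM (log2 fold change 1.28, limma adjusted p = 0.000111). Ftl1, the ferritin light chain, had a log2 fold change of 0.17 (limma adjusted p = 0.282). Gstm1 (1.25), Blvrb (1.22), Abcc4 (0.69), Gstp1 (0.57), Prdx1 (0.43) and Abcc1 (0.41) also rose on the log2 scale. The call of Prdx1 was lost in 12 of 21 alternatives, among them 9 of the 10 that left out a single sample. Txn1, thioredoxin, fell from 367.2 ± 32.7 to 246.1 ± 32.1 FPKM (log2 fold change -0.58, limma adjusted p = 0.000766) and Ephx1, microsomal epoxide hydrolase, had a log2 fold change of -0.55. Cbr3, Akr1b8 and Ugdh did not pass the test. Ferritin and glutathione transferase genes have related copies, so their single values are uncertain.

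Among 21 genes of glutathione and peroxide turnover, not all of them enzymes, 9 rose and 5 fell, beside 17.6% and 19.0% of all genes tested. Mgst1, a membrane-bound glutathione transferase, rose from 0.196 ± 0.133 FPKM (2 to 12 fragments) to 2.23 ± 0.810 FPKM (44 to 124 fragments) (SD, n = 5; log2 fold change 3.04, limma adjusted p = 0.00017). It passed the filter on low values only through the samples with NaAc, and its log2 fold change was 1.41 with a pseudocount of 1 and 3.69 with 0.01. Mgst3 (0.82), Txnip (0.54) and Glrx (0.53) rose on the log2 scale, as did Prdx4, Mgst2, Cat, Sod2 and Prdx2. The call of Glrx was lost in 9 of 21 alternatives, 8 of them with a single sample left out, and that of Mgst2 with a replicate block. Sod1, the cytosolic superoxide dismutase, fell from 83.1 ± 7.14 to 56.7 ± 2.69 FPKM (log2 fold change -0.55, limma adjusted p = 0.000116), while the mitochondrial Sod2 rose from 7.74 ± 0.660 to 9.63 ± 0.718 FPKM (log2 fold change 0.31, limma adjusted p = 0.00689). Glrx2 (-0.57), Sesn2 (-0.42), Prdx5 (-0.35) and Txnrd2 (-0.27) fell on the log2 scale. The call of Prdx5 was lost when samples were rescaled to the same total FPKM or to T cell markers, and that of Txnrd2 in 10 of 20 alternatives, 6 of them with a single sample left out. Gss, Gpx1, Gpx4, Gpx7, Prdx3, Prdx6 and Txn2 did not pass the test.

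Of 8 genes of metal handling 7 were tested. Of these 1 rose and 1 fell, beside 17.6% and 19.0% of all genes tested. Mtf1, the zinc sensor that drives metallothionein genes, fell from 7.16 ± 0.614 to 4.96 ± 0.456 FPKM (SD, n = 5; log2 fold change -0.52, standard error 0.08, limma adjusted p = 0.000592), with no overlap between the groups. Slc11a2, a carrier of ferrous iron, rose with a log2 fold change of 0.54 (limma adjusted p = 0.000449). Slc30a1, the zinc exporter that MTF1 also controls, had a log2 fold change of -0.24 (limma adjusted p = 0.133). Slc39a10, Slc39a14, Mt3 and Tfrc did not pass the test, and Mt4 had at most 8 fragments per sample and was not tested.

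**Figure D4:**
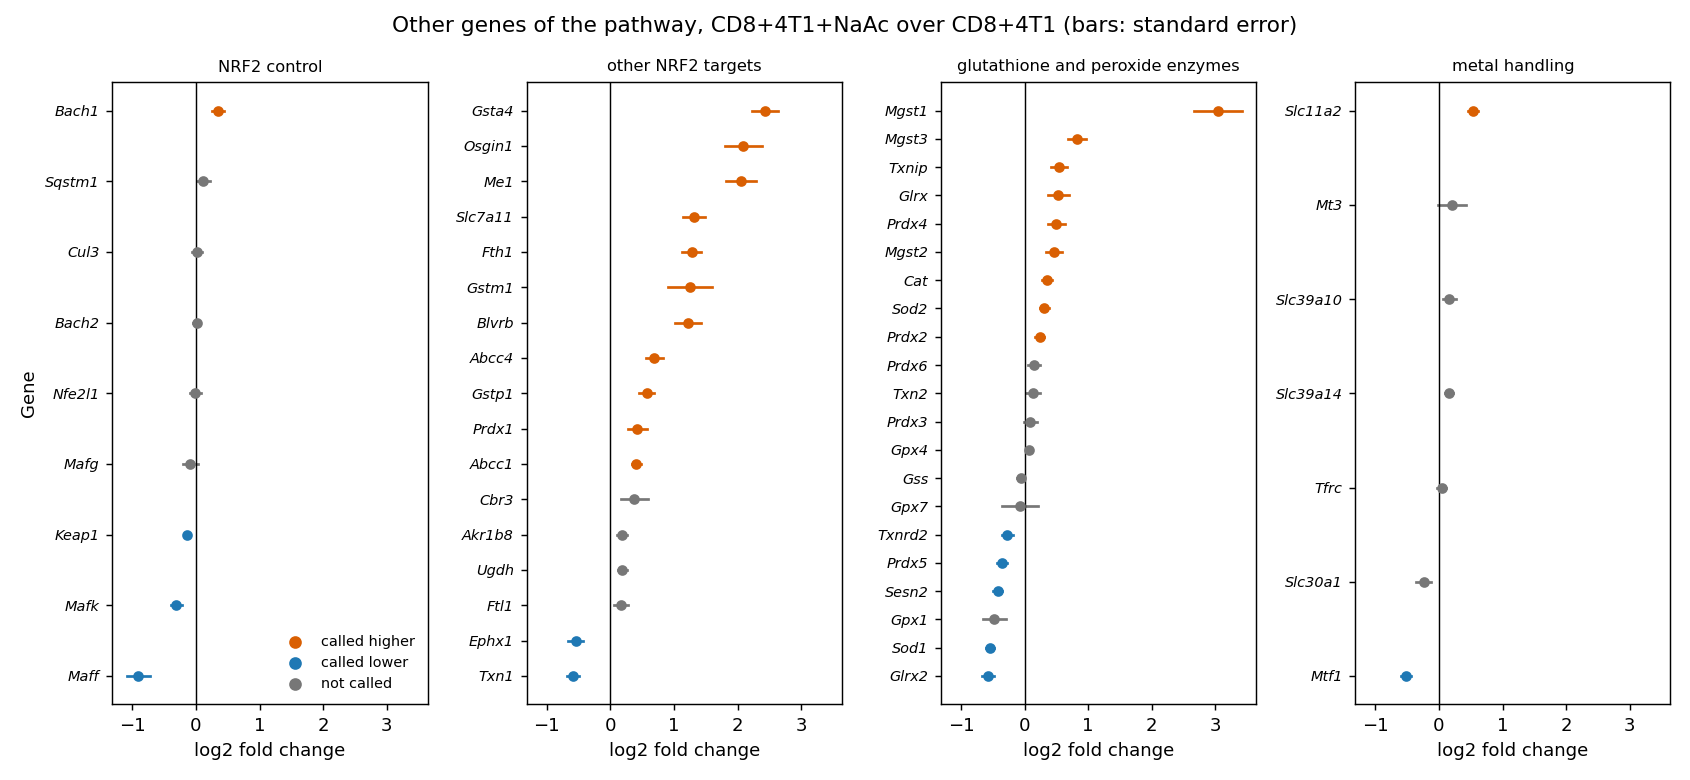
Log2 fold change, CD8+4T1+NaAc over CD8+4T1, with its standard error for the 54 other pathway genes tested, in 4 lists and coloured by the limma call. All 4 lists had calls on both sides of 0. The other NRF2 targets had 11 higher and 2 lower, and the glutathione and peroxide genes 9 and 5. The control genes had 1 and 3, and the metal handling genes 1 and 1. Of all genes tested 17.6% were called higher and 19.0% lower.

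Markers of 4T1 cells also differed between the groups. Of the 16 markers 9 were tested and 5 rose (Krt7, Krt8, Krt18, Cldn3 and Lcn2), each with no overlap between the groups, where 17.6% of all genes tested were called higher and 26.4% did not overlap. Of these, Krt7 and Cldn3 passed the filter on low values only through the samples with NaAc. The other tested markers were not called, with log2 fold changes of 0.41 for Epcam, 0.34 for Dsp, -0.0027 for Cldn7 and -0.11 for Spint2. Krt8, a keratin of simple epithelia, rose from 3.42 ± 1.69 to 34.2 ± 13.1 FPKM (SD, n = 5; limma adjusted p = 8.1e-05). Within CD8+4T1+NaAc, replicate 2 had the highest marker sum (197.4 FPKM) and the highest Nqo1, Gclm, Srxn1 and Nfe2l2. In that group replicate 5 had the lowest marker sum (84.9 FPKM) and the lowest Nqo1, Srxn1 and Nfe2l2, while the lowest Gclm was in replicate 1. Nqo1 was second highest in replicate 1, whose marker sum was second lowest (95.7 FPKM). Replicate 2 was also the highest of its group for Hmox1, Gclc, Gsr and Mt1, which were not called higher. Within CD8+4T1, replicates 4 and 5 had nearly equal and the highest marker sums (40.64 and 40.67 FPKM). Nqo1 and Gclm were highest in replicate 5 and Srxn1 and Nfe2l2 in replicate 4, but Srxn1 was lowest in replicate 5. Over the T cell markers, 6 of 12 were called lower and none higher (median log2 fold change -0.19), where 19.0% of all genes tested were called lower with a median of -0.02. The part of 4T1 RNA in the rise of the antioxidant genes was not tested. Of 8 myeloid markers 4 were tested and Lyz2 and S100a8 rose, the latter passing the filter only through the samples with NaAc. The summed level of the 8 was 25.1 to 35.2 FPKM in CD8+4T1 and 28.3 to 33.2 FPKM in CD8+4T1+NaAc, most of it from Cd68 (means of 25.8 and 22.8 FPKM), S100a9 was at 0 in every sample and Csf1r had at most 14 fragments. Of 5 B cell markers 2 were tested and none was called, with a summed level of 3.92 to 4.91 and 4.55 to 6.24 FPKM.

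**Figure D5:**
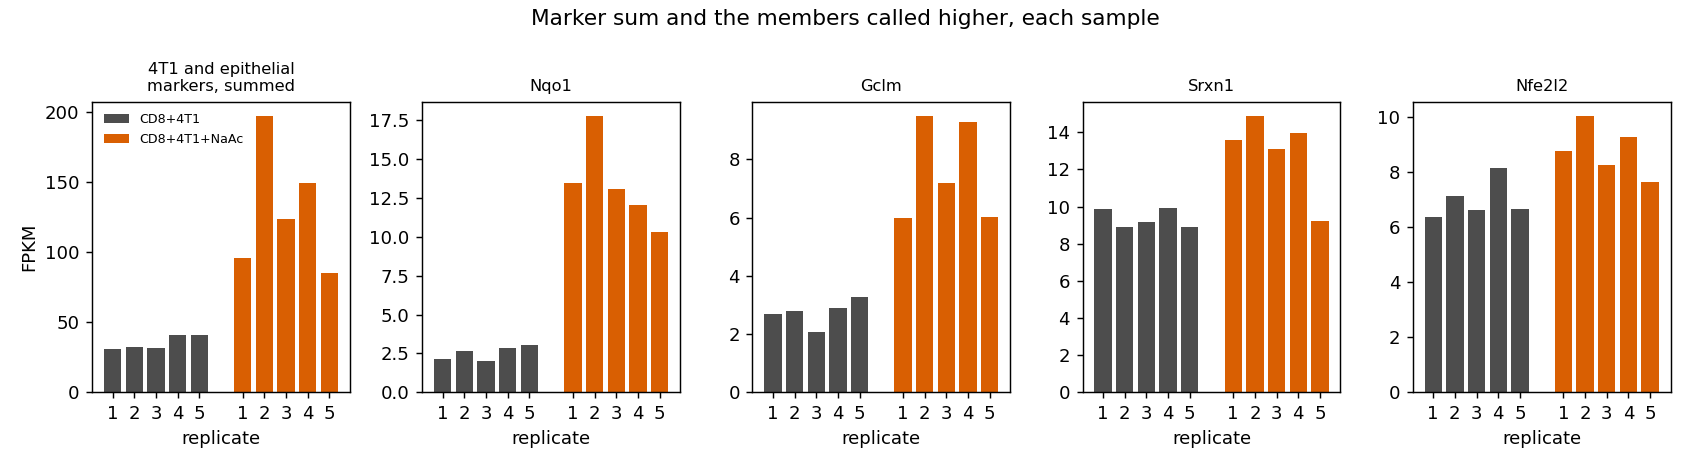
Summed FPKM of 16 markers of 4T1 and epithelial cells and FPKM of Nqo1, Gclm, Srxn1 and Nfe2l2 in replicates 1 to 5 of CD8+4T1 (grey) and CD8+4T1+NaAc (orange), each panel with its own axis from 0. Replicate 2 of CD8+4T1+NaAc was the highest in every panel, and replicate 5 was the lowest of that group for the marker sum, Nqo1, Srxn1 and Nfe2l2.

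The genes most like 3 of the 10 genes in pattern were found among 10626 protein-coding genes that averaged 1 FPKM or more, by the root mean square difference of standardized log2 values over the 10 samples. For Nfe2l2 they were Slc25a37 (0.230), a mitochondrial iron importer, Ifitm3 (0.261), an interferon-induced membrane protein, and S100a6 (0.266), a calcium-binding protein. For Mt1 they were Ndufa8 (0.134), a subunit of respiratory complex I, Tmem242 (0.136) and Timm13 (0.152), a chaperone of mitochondrial import. For Hmox1, whose groups overlapped, they were less close: Qsox2 (0.359), Pofut2 (0.395) and Myo1c (0.414).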

How the data were processed

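According to the submitters' processing notes, reads were handled with fastp, HISAT2 2.0.5, StringTie 1.3.3b and featureCounts 1.5.0-p3; the genome build, the annotation release and the strand setting are not given in the sources used here. The authors deposited FPKM per gene and sample, not pooled, with gene lengths, and positions are given as listed. FPKM are not counts, so limma 3.58.1 (R 4.3.3) was fitted on log2(FPKM + 0.1), using its trend and robust options, to the 15710 genes that averaged 0.5 FPKM or more, in place of the count model of the study; p-values were adjusted by Benjamini-Hochberg over all of them. Fold changes on this scale understate changes of low genes. FPKM times gene length gave whole multiples of a step (within 0.1) for 100% of values above 0, which gives the fragments; intervals cover the spread between samples. The fit was first run on simulated data, and the outcome of that run is not given here.

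The 10 genes and the lists were chosen with earlier results of these data known. Named were all 10 genes, the other pathway genes called with an absolute log2 fold change over 0.5 (the rest by name, some with their values), and for Nfe2l2, Hmox1 and Mt1 the 3 genes nearest in pattern. The alternatives were other pseudocounts (1 and 0.01), filters (none, at least 5 FPKM), scalings (same total, median ratio, T cell markers), plain moderation, voom on the fragments, a replicate block, an added fold threshold and leaving out samples. The ratio of Gclc to Gclm was added after the levels had been seen. Promoter sequences are from RefSeq. Figures were drawn with matplotlib 3.10.9.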

Additional observations from a re-analysis of the deposited data

Results flagged for a closer look

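In 38 groups of 5 values (the 10 genes on the log2 scale, the summed marker and pathway lists and the ratio of Gclc to Gclm, in each condition), 4 had a sample whose gap to the nearest sample exceeded 0.71 of the range, where chance gives about 1.9. Gclc was set apart low in replicate 1 of CD8+4T1+NaAc (a gap of 0.826 of the range). Srxn1 was set apart low in replicate 5 of CD8+4T1+NaAc (0.733), the sample that overlapped CD8+4T1. The summed FPKM of the metal handling genes was lowest in replicate 4 of CD8+4T1 (0.830). The summed FPKM of B cell markers was lowest in replicate 1 of CD8+4T1+NaAc (0.821).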

How the results depend on the processing

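Nqo1, Gclm, Srxn1, Nfe2l2 and Mt1 kept direction and call in all 21 alternative fits, and Hmox1 was called in none. The count of called genes among the 10 stayed between 5 and 7, and was 2 with a log2 fold change over 1 added. Among the other pathway genes, where 33 were called, 8 were called with the fold threshold added. At a mean of at least 5 FPKM 36 of them were tested and 20 called, 19 of these among the 33 and Gpx1 gained. Over all genes, where 5742 were called, the counts were 1016 with the fold threshold and 3733 at a mean of at least 5 FPKM. Txnrd1 changed sign when samples were rescaled to the same total FPKM (0.13) or to T cell markers (0.090). Gsr did so under these settings (0.17 and 0.13), without replicate 1 of both groups (0.027) and without replicate 5 of CD8+4T1 or replicate 1 of CD8+4T1+NaAc (between -0.051 and 0.028 over all samples left out singly). The cause was not tested. With each sample left out, 5 to 6 of the 10 genes, 30 to 41 pathway genes and 4947 to 6965 of all genes were called. Of called genes 48.1% were higher, and 77.9% after rescaling to the same total. With a replicate block, 5 of the 10 genes, 34 pathway genes and 5399 genes were called. Deviations of same-numbered samples correlated with r between -0.03 and 0.07, and not every sample correlated best with its own number. No pairing by number was thus seen. Such correlations cannot show whether same-numbered samples shared a mouse or culture, and the labels do not say. Depth limits Mt2 and Mt4.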
